A study of Rattus norvegicus with 10 samples.

Results

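FAT1, AHNAK, DST, FLNA and ARHGAP21 encode large proteins that sit between the cell membrane and the cytoskeleton. They were 5 of the 32883 genes listed for every rat. The members were picked by symbol from the study's own list of differentially expressed genes, on which each was higher in rats fed a high fat diet, so the contrast between diets chose them and their diet differences are given as a description with no test. Choroid plexus, the tissue that secretes cerebrospinal fluid, was taken from the lateral and 4th ventricles of female Wistar rats aged 27 weeks. One group of 5 rats had eaten a high fat diet (HFD, 60% of energy from fat) and the other group of 5 a control diet matched in nutrient sources (10% of energy from fat), each for 21 weeks. Every RNA-seq library came from 1 rat with no pooling, and the study kept control rats below and HFD-fed rats above set body weights, so the groups were also selected on weight. In such whole tissue, fewer cells of a type and less RNA per cell cannot be told apart.

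FAT1 is a giant cadherin-like receptor whose cytoplasmic tail is known to bind regulators of actin assembly. FLNA, filamin A, crosslinks actin filaments and anchors them to membrane proteins such as integrins. DST, dystonin, is a plakin that ties actin, microtubules and intermediate filaments to one another and to adhesion sites. AHNAK is a very large scaffold beneath the membrane that binds annexin A2 and its S100 partner. ARHGAP21 switches off small GTPases, is recruited by ARF1 and binds alpha-catenin. In an epithelium such as the choroid plexus these parts of the cell hold the apical brush border, the junctions and the basal adhesions in place. No protein sequence was analysed here, so the size of the encoded proteins was not checked.

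The 250 bases before the RefSeq start of each gene are described first, since the 5 genes were grouped by their direction with the diet and any shared letters would be visible there. All 5 genes were matched in the promoter table, which uses the GRCr8 build, whereas expression was measured against Rnor_6.0. Capitals mark matches on either strand to the GC box GGGCGG, the letters bound by SP1-type factors, and to the TEAD site CATTCC, bound by the partners of YAP1. FAT1 and ARHGAP21 are shown as the pair called as correlated across all rats on the main scale used below, a relation that depended on that scale. AHNAK and FLNA are shown as the members with a TEAD match. The windows lie at chr16:54028610-54028859 on the minus strand for FAT1, chr17:88380479-88380728 on the minus strand for ARHGAP21, chr1:215311104-215311353 on the plus strand for AHNAK and chrX:157182344-157182593 on the minus strand for FLNA, and each is printed 5′ to 3′ along its gene.
FAT1: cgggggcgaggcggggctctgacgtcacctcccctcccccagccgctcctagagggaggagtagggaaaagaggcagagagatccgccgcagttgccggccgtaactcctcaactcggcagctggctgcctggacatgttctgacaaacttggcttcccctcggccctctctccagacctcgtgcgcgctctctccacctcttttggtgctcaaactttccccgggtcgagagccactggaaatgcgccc
ARHGAP21: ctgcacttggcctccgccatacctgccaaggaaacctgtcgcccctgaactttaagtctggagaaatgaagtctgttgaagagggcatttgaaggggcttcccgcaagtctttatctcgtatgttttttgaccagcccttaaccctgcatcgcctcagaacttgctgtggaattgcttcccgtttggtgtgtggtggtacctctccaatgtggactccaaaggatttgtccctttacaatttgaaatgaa
AHNAK: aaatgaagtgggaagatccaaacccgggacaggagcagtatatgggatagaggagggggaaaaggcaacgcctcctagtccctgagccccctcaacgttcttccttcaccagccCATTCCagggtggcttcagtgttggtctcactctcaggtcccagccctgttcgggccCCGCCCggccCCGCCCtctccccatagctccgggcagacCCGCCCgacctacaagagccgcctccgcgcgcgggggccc
FLNA: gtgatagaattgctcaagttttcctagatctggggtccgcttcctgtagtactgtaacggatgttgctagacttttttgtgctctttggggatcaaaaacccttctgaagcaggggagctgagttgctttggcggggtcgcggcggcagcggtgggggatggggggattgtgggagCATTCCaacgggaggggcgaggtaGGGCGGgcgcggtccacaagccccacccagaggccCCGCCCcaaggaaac

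The windows of FAT1 and ARHGAP21 held none of the 4 motifs searched, which also included the AP-1 site TGANTCA and the CArG box, the site of serum response factor. AHNAK held 1 TEAD match, from 136 to 131 bases before the start, and 3 GC boxes. FLNA held 1 TEAD match, from 74 to 69 bases before the start, and 2 GC boxes. DST, whose window lies at chr9:43731772-43732021 on the plus strand, held 6 GC boxes and no TEAD match. Among all 33469 rat promoter windows of this length, 12.1% held the TEAD letters, 30.5% a GC box, 6.34% the AP-1 letters and 1.5% a CArG box. GC content was 80.4% for DST, 64.8% for AHNAK, 64% for FAT1, 59.2% for FLNA and 48.4% for ARHGAP21, beside a median of 51.2% over all windows. No motif was thus held by all 5 windows, and only the annotated start of each gene was searched.

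The library of control rat 1 stood apart from the rest, and the values below are therefore given with and without it. Set against the median of all remaining rats, 1842 genes of that library were more than 2-fold away, while the other 9 libraries had 171 to 235 such genes. Levels are deposited TPM, an abundance per transcript length and library total, divided by a factor for each rat, the median ratio of its genes to the mean of all rats. That factor was 0.747 for control rat 1 and 0.944 to 1.13 for the others. The TPM scale keeps no read depth, so the counting error of each value is unknown. All 10 epithelial markers looked for, among them TTR, KL, AQP1 and KCNJ13, were above 0 in every rat. TTR, the transthyretin carrier made by this epithelium, took 32.2% to 39.7% of TPM, the most in control rat 1.

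FAT1 was measured at 3.76, 2.11, 2.59, 2.30 and 2.58 rescaled TPM in control rats 1 to 5. The HFD-fed rats 1 to 5 had 3.92, 4.05, 4.62, 3.44 and 5.12. The diets overlapped through control rat 1 alone, which lay above HFD-fed rat 4, while the other 4 controls were all below the lowest HFD-fed rat. The mean was 4.23 ± 0.652 in HFD-fed rats against 2.67 ± 0.645 in controls (SD, n = 5 each), a ratio of 1.59. Without control rat 1 the control mean was 2.39 ± 0.234 (SD, n = 4) and the ratio 1.77.

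AHNAK stood at 5.02, 3.09, 3.56, 3.62 and 5.38 rescaled TPM in the controls. In the HFD-fed rats it stood at 5.98, 5.64, 6.47, 6.39 and 6.76. It was the only member whose diets did not overlap on this scale, with control rat 5 nearest to HFD-fed rat 2. Every HFD-fed rat was above every control for 171 of the 12198 genes tested, or 1.4%. The means were 6.25 ± 0.441 and 4.14 ± 1.00 (SD, n = 5 each), a ratio of 1.51 that became 1.6 without control rat 1. Control rats spread more than HFD-fed rats, with a coefficient of variation of 24.2% against 7.06%, and the control figure stayed at 25.6% without rat 1 because rat 5 was also high.

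DST had 3.86, 3.74, 4.52, 4.25 and 5.24 rescaled TPM in the controls. It had 5.26, 4.98, 6.49, 5.66 and 6.45 in the HFD-fed rats. Here control rat 5 was the high control and lay above HFD-fed rat 2, and control rat 1 was among the low ones, unlike for the other 4 genes. The means were 5.77 ± 0.686 and 4.32 ± 0.601 (SD, n = 5 each), a ratio of 1.34, and 1.3 without control rat 1.

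FLNA was at 19.5, 15.7, 15, 14.0 and 15.4 rescaled TPM in the controls. In the HFD-fed rats it was at 19.1, 22.5, 20.3, 22.3 and 21.1. Control rat 1 exceeded HFD-fed rat 1 and was the only control to reach the HFD range. The means were 21.1 ± 1.42 and 15.9 ± 2.10 (SD, n = 5 each), a ratio of 1.32. The remaining 4 controls lay close together at 15 ± 0.734 (SD, n = 4), and the ratio against them was 1.40.

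ARHGAP21 showed the smallest difference and the tightest controls, at 7.42, 6.87, 7.02, 6.96 and 7.12 rescaled TPM. The HFD-fed rats were at 8.09, 7.75, 8.16, 7.32 and 8.72. Control rat 1 was again the highest control and the only one above HFD-fed rat 4. The means were 8.01 ± 0.518 and 7.08 ± 0.212 (SD, n = 5 each), a ratio of 1.13 that became 1.15 without control rat 1. The coefficient of variation was 3.00% in controls, and 1.54% without rat 1, where the median over all genes tested was 17.2% and 9.02%.

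**Figure D1:**
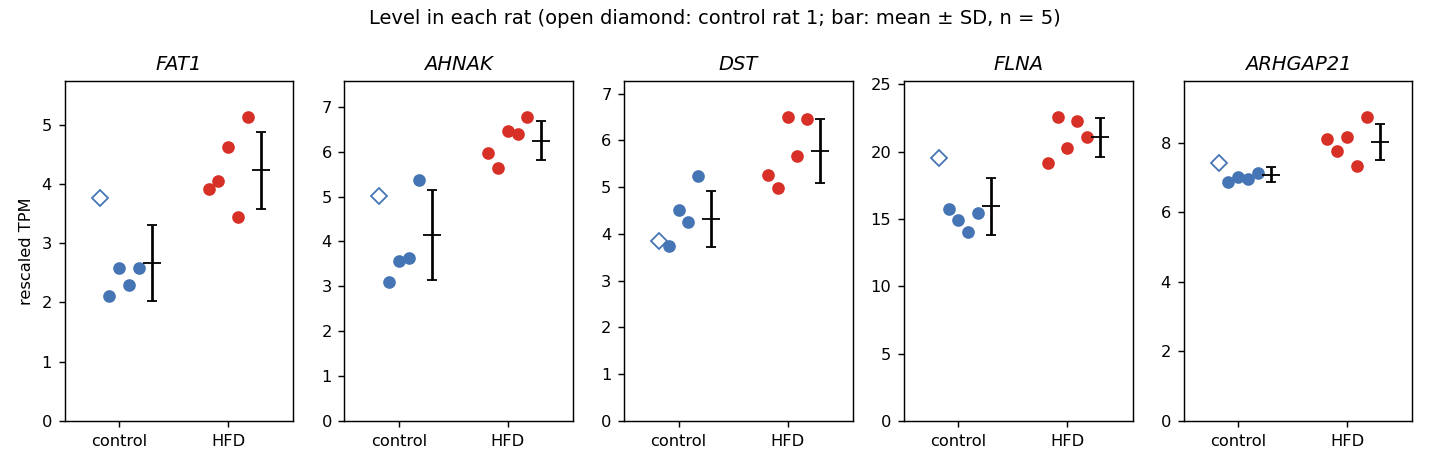
Rescaled TPM of each gene (vertical axis, from 0, one panel per gene) in every rat by diet, with the mean and SD of 5 rats beside the points. Control rat 1 (open diamond) lies inside or at the edge of the HFD range for FAT1, FLNA and ARHGAP21, and the diets are apart for AHNAK alone.

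On the log2 scale with 0.1 added to each value, HFD minus control was 0.66 (SE 0.17) for FAT1, 0.61 (SE 0.15) for AHNAK, 0.41 (SE 0.12) for DST, 0.41 (SE 0.094) for FLNA and 0.17 (SE 0.072) for ARHGAP21. The median of the 5 was 0.41, beside a median of 0.013 over all 12198 genes tested. A log2 difference at least as high was found for 2.01% of tested genes in the case of FAT1, 2.49% for AHNAK, 7.24% for DST, 7.34% for FLNA and 24.5% for ARHGAP21. The limma test across all genes gave 0 adjusted p-values under 0.05, and an unadjusted p under 0.05 for 1048 genes (8.59%). Of these, HFD-fed rats had higher levels for 459 (3.76% of genes tested) and lower levels for 589 (4.83%). The study had tested read counts, which were not analysed here.

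Without control rat 1 the log2 differences were 0.79 (SE 0.13) for FAT1, 0.69 (SE 0.14) for AHNAK, 0.37 (SE 0.12) for DST, 0.48 (SE 0.064) for FLNA and 0.19 (SE 0.065) for ARHGAP21. All 5 HFD-fed rats then lay above all 4 controls for every member except DST, for which 4 did. Over the 12206 genes tested without this rat, 273 (2.24%) had every HFD-fed rat above every control, and 1434 (11.7%) had an unadjusted limma p under 0.05, with 675 (5.53%) higher and 759 (6.22%) lower. On rescaled TPM the differences were thus larger without this rat for 4 of the 5 genes and smaller for DST. Relative to the mean of the other 4 controls, control rat 1 was at 1.57 for FAT1, 1.3 for FLNA, 1.28 for AHNAK, 1.06 for ARHGAP21 and 0.869 for DST. In the same library the endothelial marker PLVAP stood at 97.5 rescaled TPM against 53.8 to 62.4 in the other controls, and the pericyte marker RGS5 at 42.8 against 106 to 110. The part of these values in the levels of the 5 genes was not tested.

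The scale mattered for this one rat. On TPM as deposited, control rat 1 had 2.81 for FAT1, 3.75 for AHNAK, 2.88 for DST, 14.57 for FLNA and 5.54 for ARHGAP21, which put it below the mean of the other controls for all but FAT1. FAT1 ranged from 2.13 to 2.81 in controls and from 3.78 to 5.78 in HFD-fed rats on that scale, and FLNA from 14.57 to 15.90 and from 19.13 to 24.52, so both then separated the diets fully, as did 1.32% of all 12221 genes tested on it in this direction. AHNAK, with 5.48 in control rat 5 and 5.34 in HFD-fed rat 2, no longer did, and DST and ARHGAP21 overlapped on both scales. The log2 differences were 0.76 for FAT1, 0.71 for AHNAK, 0.51 for DST, 0.51 for FLNA and 0.28 for ARHGAP21. Without control rat 1 they were 0.80 for FAT1, 0.70 for AHNAK, 0.38 for DST, 0.49 for FLNA and 0.20 for ARHGAP21, so that on this scale only FAT1 had a larger difference without the rat. The median of all genes tested was itself shifted to 0.12 by the deposited scale, against 0.013 after rescaling, and was 0.013 on the deposited scale once control rat 1 was left out. It called 624 genes (5.11%) at an unadjusted limma p under 0.05, of which 470 (3.85%) were higher and 154 (1.26%) lower. The 5 genes remained higher in HFD-fed rats than in controls under both scales, with and without this rat. That is a description, since they were picked as higher in these same rats.

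**Figure D2:**
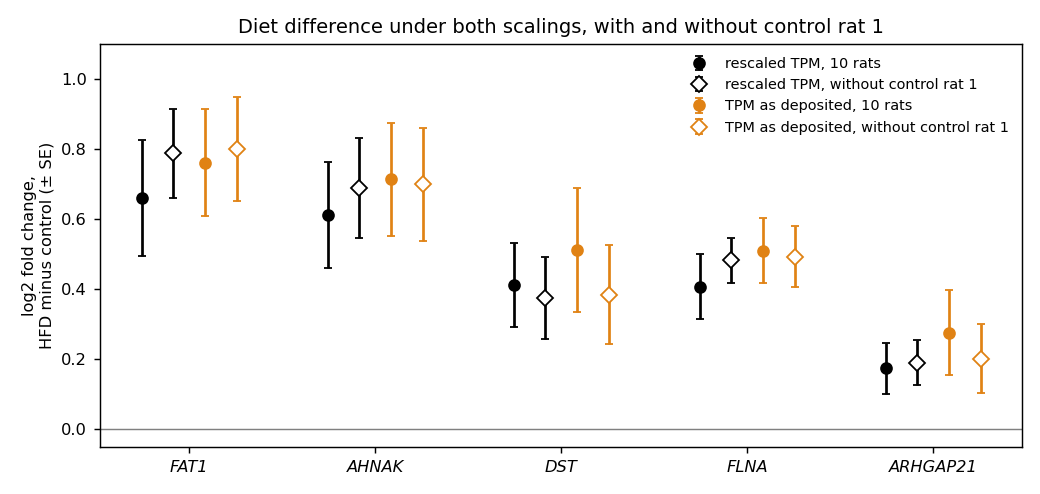
Log2 difference, HFD minus control, with its standard error for each gene under rescaled and deposited TPM, with 10 rats (filled circles) and without control rat 1 (open diamonds). All points lie above 0, the error bars of each gene overlap one another, and ARHGAP21 is lowest throughout.

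TPM is a level per length of transcript, so the genes can be ranked against one another within a rat. The members were chosen on differences between diets and not on the level of one gene against another, but the gaps between genes also carry those differences and are therefore given for each diet. FLNA was the most abundant at a mean of 18.5 rescaled TPM over all rats, followed by ARHGAP21 at 7.54, AHNAK at 5.19, DST at 5.04 and FAT1 at 3.45. The median gene tested stood at 10.4, so all but FLNA were below the middle of the expressed genes. FLNA exceeded ARHGAP21 by 1.27 ± 0.19 on the log2 scale (SD, n = 10 rats), ARHGAP21 exceeded AHNAK by 0.57 ± 0.31, and DST exceeded FAT1 by 0.57 ± 0.30, each in 10 of 10 rats. The adjusted p was 0.0026 for each of these 3 steps in an exact two-sided permutation test of signs over 4 neighbours, where the raw p of 0.00195 is the smallest that 10 rats can give. AHNAK and DST differed by 0.02 ± 0.23 on the log2 scale, AHNAK being higher in 6 of 10 rats, and could not be told apart (exact permutation p = 0.809). Within diets the step from FLNA to ARHGAP21 was 1.15 ± 0.15 in controls and 1.38 ± 0.17 in HFD-fed rats on the log2 scale (SD, n = 5 each), and the steps from ARHGAP21 to AHNAK were 0.79 ± 0.30 and 0.35 ± 0.10. DST exceeded FAT1 by 0.69 ± 0.38 in controls and by 0.44 ± 0.16 in HFD-fed rats. AHNAK minus DST was -0.08 ± 0.29 in controls and 0.12 ± 0.08 in HFD-fed rats, so their order by mean differed between the diets.

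Whether the members move together from rat to rat was examined on log2 values centred on each diet's mean, which removes the difference that chose them. FAT1 and ARHGAP21 rose and fell together across the 10 rats (Pearson r = 0.820, exact permutation p = 0.000694, adjusted p = 0.00694 over the 10 pairs). Spearman's coefficient was 0.818 (exact permutation p = 0.00597, adjusted p = 0.0597), so the rank form missed the threshold after adjustment. HFD-fed rat 5 was the highest HFD-fed rat for both genes, at 0.28 above the HFD mean for FAT1 and 0.12 for ARHGAP21 in log2 units. HFD-fed rat 4 was the lowest for both, at -0.28 and -0.13. The r was 0.798 without the 2 rats farthest from the median of FAT1. Without control rat 1 it was 0.886 over 9 rats (exact permutation p = 0.00833, adjusted p = 0.0417; Spearman = 0.80, adjusted p = 0.125), and 0.640 once the 2 farthest rats, both HFD-fed, were also left out.

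AHNAK and DST formed the other close pair, though only without control rat 1. Over all 10 rats their r was 0.541 (exact permutation p = 0.159, adjusted p = 0.367), with control rat 1 high for AHNAK by 0.31 and low for DST by -0.15 relative to the control means in log2 units. Over the 9 other rats r was 0.849 (exact permutation p = 0.00139, adjusted p = 0.0139) and Spearman's coefficient 0.867 (adjusted p = 0.0556), and r was 0.897 without the 2 rats farthest from the median of AHNAK. Control rat 5 was the highest control for both genes and control rat 2 the lowest of these 4. FAT1 and DST followed with r = 0.718 over the 9 rats (exact permutation p = 0.0389, adjusted p = 0.130) against 0.198 over 10.

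**Figure D3:**
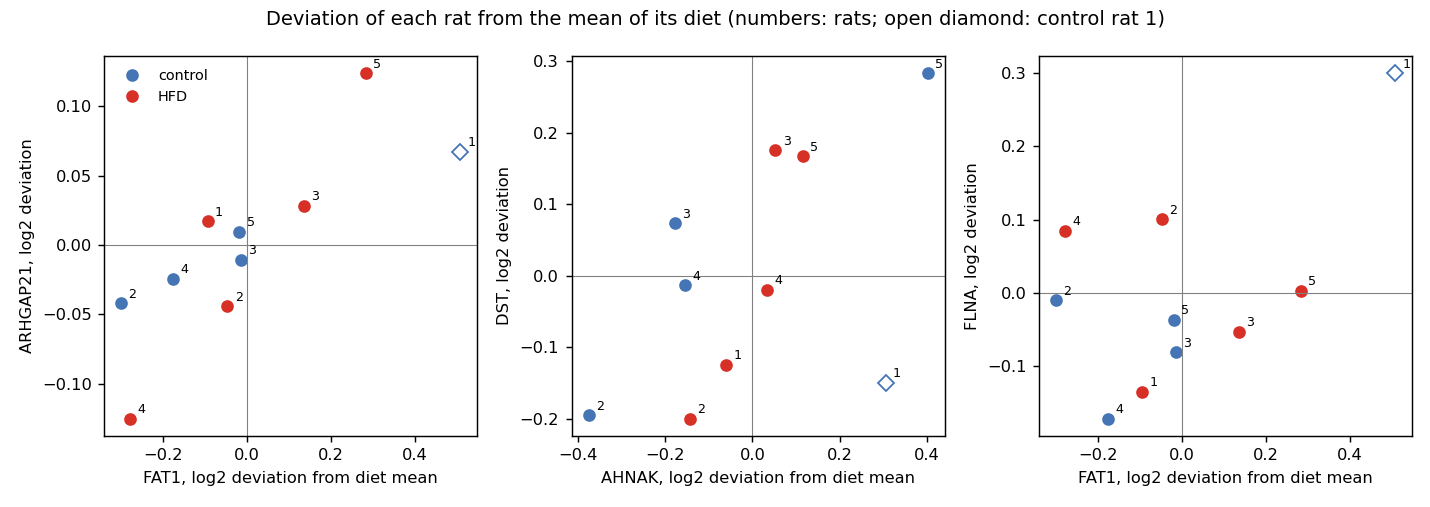
Log2 deviation of each rat from its diet's mean for FAT1 against ARHGAP21, AHNAK against DST, and FAT1 against FLNA, with rats numbered within each diet. The rats fall along a rising line in the left panel (r = 0.820), control rat 1 lies off the line of the others in the middle panel, and in the right panel it lies alone at the upper right.

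By their medians, the 4 pairs with FLNA had lower correlations than the 6 pairs without it, although their sign depended on the scale and on control rat 1. The r of FLNA with FAT1 was 0.540 over 10 rats, -0.297 without the 2 rats farthest from the median of FAT1, and -0.219 without control rat 1, so the positive value rested on that library. Over the 9 rats the r of FLNA was 0.01 with AHNAK, -0.13 with DST and -0.42 with ARHGAP21, none with an adjusted exact permutation p under 0.05. On deposited TPM over the same 9 rats these values were 0.349, 0.301 and 0.395, and that with FAT1 was 0.143. The median r was 0.491 over the 6 pairs without FLNA and 0.244 over the 4 pairs with it, and 0.622 and -0.175 without control rat 1. On deposited TPM the medians were 0.486 and 0.366 over 10 rats, and 0.739 and 0.325 without control rat 1. Whether these medians differ was not tested. As a background, the median r of each member with all tested genes lay between -0.02 and 0.02, and an r as high as that of FAT1 with ARHGAP21 over 10 rats was found for 2.28% of genes against FAT1 and 0.394% against ARHGAP21.

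The covariation of FAT1 with ARHGAP21 depended on the scale, with and without control rat 1. On deposited TPM the r was 0.344 over 10 rats (adjusted exact permutation p = 0.403). It was 0.811 over the 9 rats without control rat 1, where the adjusted exact permutation p of 0.0781 also missed the threshold. DST and ARHGAP21 instead gave r = 0.846 over 10 rats on deposited TPM, against 0.340 after rescaling, but 0.694 without control rat 1 (adjusted exact permutation p = 0.103). AHNAK and DST gave 0.884 on deposited TPM without control rat 1 (adjusted exact permutation p = 0.0417), close to the 0.849 after rescaling.

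**Figure D4:**
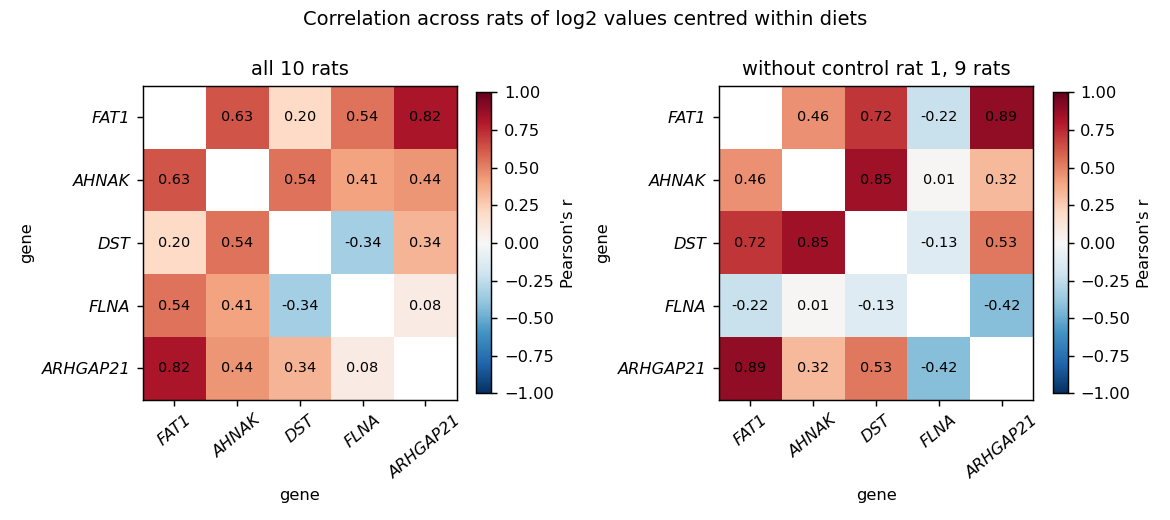
Pearson's r of log2 values centred within diets for each pair of genes (rows and columns), over all 10 rats on the left and over 9 rats without control rat 1 on the right, with colour from -1 to 1. FAT1 with ARHGAP21 is at 0.82 and 0.89, AHNAK with DST goes from 0.54 to 0.85, and the FLNA row turns from mostly positive to near or below 0.

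The same deviations were set against library measures and markers of other cell types, 45 relations in all. None reached an adjusted exact permutation p under 0.05, with or without control rat 1, and 3 had an unadjusted p under 0.05 in each case. The smallest p over 10 rats belonged to ARHGAP21 and PLVAP, the endothelial marker (r = 0.653, exact permutation p = 0.00535, adjusted p = 0.241), and their r was 0.757 without control rat 1. FAT1 and PLVAP gave r = 0.843 over 10 rats and 0.126 without the 2 farthest rats, but 0.572 without control rat 1 and 0.567 with a further 2 rats left out. Without control rat 1, HBB, the haemoglobin gene of red blood cells, was lower in rats with more FAT1 (r = -0.901, Spearman = -0.900, exact permutation p = 0.00174, adjusted p = 0.0781) and more ARHGAP21 (r = -0.772, adjusted p = 0.109). HBB ranged from 818 to 1608 rescaled TPM in controls and from 699 to 1507 in HFD-fed rats. RGS5 was higher in rats with more FLNA, again without control rat 1 (r = 0.767, exact permutation p = 0.0226, adjusted p = 0.339). Over all 10 rats the r of RGS5 with FLNA had the opposite sign, at -0.713. One named marker each of stromal cells (DCN, 116 to 231 in controls and 160 to 227 in HFD-fed rats), macrophages (CD74, 150 to 218 and 178 to 240) and endothelium (PLVAP, 53.8 to 97.5 and 51.1 to 67.2) was also present in every rat, and 0 of 6 neural and glial markers carried a name here. The part of other cell types in the levels of the 5 genes was not tested.

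Among the partners of the members, the actin group was the one with genes past the unadjusted threshold. Of 18 listed crosslinkers and membrane skeleton genes only 4 could be named and tested, and 2 passed an unadjusted p of 0.05 with limma, both higher in HFD-fed rats, where 8.59% of all genes tested passed and 3.76% were higher. ACTG1, cytoplasmic gamma-actin, went from 200 ± 38.2 to 266 ± 45.9 rescaled TPM (SD, n = 5 each), a log2 difference of 0.42 (SE 0.16, exact permutation p = 0.0238, adjusted limma p = 0.543). ACTB, beta-actin, went from 352 ± 19.2 to 395 ± 35.1, a log2 difference of 0.16 (exact permutation p = 0.0397, adjusted limma p = 0.572). The actins are near-identical in sequence, so reads could have been divided between them. Control rat 1 had the lowest ACTG1 of all rats at 136, and without it the log2 difference was 0.29. SPTBN1, the non-erythroid beta-spectrin beneath the membrane, stood at 47.6 ± 10.2 and 58.3 ± 3.89, and ACTN4, an alpha-actinin, differed by 0.01 on the log2 scale. The median log2 difference of the 4 was 0.24, and 0.18 without control rat 1.

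The other groups of partners held few called genes. Of the plakin and hemidesmosome list 3 of 16 genes were tested, the epithelial keratins KRT8 (log2 difference -0.08) and KRT18 (-0.05) and the filament protein VIM (0.32), with 0 past the unadjusted threshold. VIM was spread widely among HFD-fed rats, from 47.7 to 131 rescaled TPM. Of the ARHGAP21 list 7 of 14 genes were tested, namely ARF1, CDC42, RAC1, RHOA, RHOC, CTNNA1 and CTNNB1, with 0 past the threshold and a median of -0.01. Without control rat 1 ARF1 was lower at an unadjusted limma p under 0.05, and so counted, in the higher direction, were ANXA2 and TPM1 of the lists that follow. ANXA2, the only one of 6 AHNAK partners tested, had a log2 difference of 0.00, and 0.12 without control rat 1. From the list of YAP1 and serum response factor targets and regulators only YAP1 itself (0.19, and -0.03 without control rat 1) and the tropomyosin gene TPM1 (0.18, and 0.25) were tested, of 16. None of the 12 FAT1 relatives and partners carried a name, and no adjusted p in any of these lists was under 0.05.

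A broader list of 36 genes for actin remodelling and contraction was written once it was known which genes carried names. Its median log2 difference was -0.04, with 14 of 36 above 0, and 4 of 36 genes had an unadjusted p under 0.05 with limma, near the 8.59% of all genes tested. CALD1, caldesmon, which holds back actomyosin contraction, was higher in HFD-fed rats at 87.1 ± 6.51 against 70.2 ± 8.84 rescaled TPM (SD, n = 5 each; exact permutation p = 0.0159, adjusted limma p = 0.542). CORO1B, an actin filament binding coronin, was lower, from 68.0 ± 8.82 to 56.7 ± 1.93 (exact permutation p = 0.00794, adjusted limma p = 0.542). PARVB, a parvin of focal adhesions, went from 78.3 ± 10.9 to 65.9 ± 3.58 (exact permutation p = 0.00794, adjusted limma p = 0.543). LASP1 went from 77.5 ± 2.72 to 69.8 ± 5.01 (exact permutation p = 0.0238, adjusted limma p = 0.569). The 5 scaffold genes were thus not accompanied by a common direction over these 36 genes. The 4 crosslinker and membrane skeleton genes tested, of 18 listed, had log2 differences from 0.01 (ACTN4) to 0.42 (ACTG1), beside a median of 0.013 over all genes tested. They are too few to show a direction, and the near-identical actins are among them.

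A last list held 14 genes of very large proteins other than the members, also written with the names known. SPTBN1 is on this list and also on that of crosslinkers and membrane skeleton genes. In HFD-fed rats 5 of its genes were higher at an unadjusted limma p under 0.05 and 0 lower. Over all genes tested the shares were 3.76% higher and 4.83% lower. The median log2 difference of the list was 0.22, or 0.15 without control rat 1. This list is not independent of the choice of members, since 4 of its genes come from the study's own list, 3 of them among the 5 called. Of these, CHD6, a chromatin remodeller, went from 7.83 ± 0.628 to 9.78 ± 0.682 rescaled TPM, AKAP13, a scaffold for signalling kinases, from 3.79 ± 0.308 to 4.82 ± 0.414, and PIKFYVE, a lipid kinase of endosomes, from 4.97 ± 0.271 to 5.87 ± 0.412 (SD, n = 5 each). The fourth, LAMC1, a laminin chain, stood at 10.4 ± 3.26 and 12.0 ± 2.99. For the 10 genes outside that list the median was 0.17, and 0.091 without control rat 1, with 6 of 10 above 0. NOTCH2 (log2 difference 0.18) and the coagulation factor gene F5 (0.30) were past the unadjusted threshold, and neither was without control rat 1, where SPTBN1 was.

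**Figure D5:**
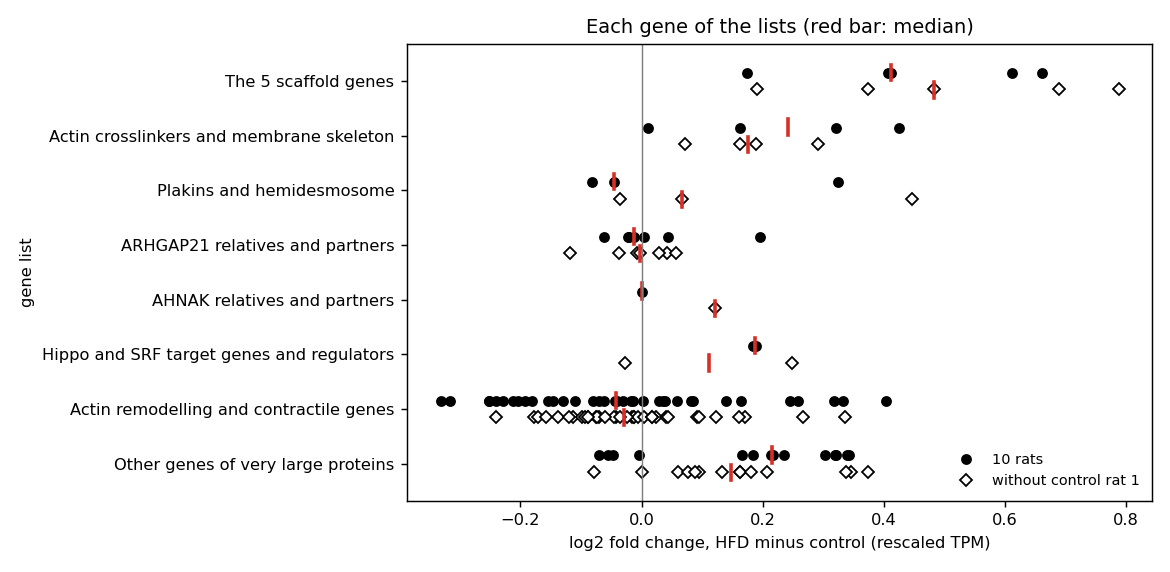
Log2 difference, HFD minus control (horizontal axis), of each gene in the lists named on the vertical axis, with 10 rats (filled circles) and without control rat 1 (open diamonds), and a red bar at each median. The 5 scaffold genes, which were picked as higher in HFD-fed rats, lie at 0.17 and above. The 36 actin remodelling genes spread to both sides of 0 around a median of -0.04.

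Genes whose rat-to-rat pattern was most like the mean of the 5 members were looked for among 1996 named genes, on values centred within diets. Over all 10 rats these were SUPT5H, a transcription elongation factor (r = 0.908), CHTOP, an mRNA export factor (r = 0.879), HSP90AB1, a chaperone (r = 0.845), RNF10 (r = 0.841) and MAPK8IP1, a scaffold of the JNK pathway (r = 0.832). Their diet differences were between -0.21 and -0.03 on the log2 scale, opposite in sign to those of the 5 genes. Over the 9 rats without control rat 1 the closest were CBX6, a Polycomb protein (r = 0.946), MCFD2, which helps carry coagulation factors out of the endoplasmic reticulum (r = 0.910), SLFN5 (r = 0.907), TMEM72 (r = 0.887) and AABR07001382.1 (r = 0.883). Over all 10 rats the diet differences of SLFN5 (0.23), TMEM72 (0.16) and AABR07001382.1 (0.44) had the sign of the 5 members, and those of CBX6 (-0.08) and MCFD2 (-0.02) the opposite sign. The 5 names differed entirely between these sets of rats, and each r is a description over 10 or 9 rats that share their libraries.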

How the data were processed

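Choroid plexus RNA of 10 rats was sequenced by the study, where STAR placed the reads on Rnor_6.0 and RSEM 1.3.3 gave gene levels. For every gene and rat the deposited files give TPM and FPKM. FPKM as deposited was a constant multiple of TPM within a rat and served only to give the mean effective length. The authors tested raw counts with DESeq2, which was not repeated here. TPM was divided by each rat's median ratio over 12037 genes. The 12198 genes whose rescaled TPM averaged 1 or more were tested as log2(TPM + 0.1) with limma 3.58.1 in R 4.3.3, with a mean-variance trend and Benjamini-Hochberg adjustment, so fold changes of low genes are understated. The limma p-values set the diet difference against the spread between rats of a diet. With 1 library per rat, that spread does not separate rats from libraries. No batch was given in the labels.

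Symbols came from the study's supplementary tables, which were shortened and paired 2015 Ensembl identifiers with names, and 7 symbols with more than 1 identifier were left out. List genes outside the study's list of differentially expressed genes were all abundant. The lowest diet mean among them was 43.8 rescaled TPM, for TPM2 in HFD-fed rats, while the median gene tested stood at 10.4. Shares over all genes tested thus include many genes of lower level than the lists. The paralogs FAT2, FAT3, FAT4, AHNAK2, PRX, MACF1, PLEC, FLNC and ARHGAP23 carried no name there and were not analysed here, and reads of such relatives may have been divided by the authors' counting. The identifiers were ENSRNOG00000030954 (FAT1), ENSRNOG00000057569 (AHNAK), ENSRNOG00000012207 (DST), ENSRNOG00000054890 (FLNA) and ENSRNOG00000008659 (ARHGAP21).

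The members and lists were chosen with earlier results of these data known. Apart from the members, the named genes were up to 3 per list with the smallest unadjusted p under 0.05, and the 5 genes most correlated with the members' mean. Any other list gene was chosen for naming with its values in view. Correlations used exact enumeration of all 14400 permutations within diets (2880 for 9 rats) and the order of levels all 1024 sign flips, in place of 100000 resamples. Promoters came from RefSeq on GRCr8. The fitting script was tested on simulated data. Alternatives were deposited TPM, upper-quartile rescaling, other pseudocounts and filters, array weights, a replicate block and leaving out each rat.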

Additional observations from a re-analysis of the deposited data

Results flagged for a closer look

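In control rat 1 the factor used to rescale TPM was 0.747, against 1.01 to 1.05 in the other 4 controls, and its gap to the nearest of them was 0.884 of the range of the group. The mean effective transcript length implied by TPM and FPKM was 789 bases in the same rat against 905 to 918 bases in the other controls, with a gap of 0.9 of the range. On deposited TPM, ARHGAP21 in control rat 1 was 5.54 against 6.95 to 7.35 in the other controls, with a gap of 0.779 of the range, and AHNAK in control rat 5 was 5.48 against 3.13 to 3.76, with a gap of 0.732. These gaps exceeded Dixon's critical value of 0.71 for 5 samples. Among 24 groups of 5 values looked at these were the 4 that did so, where chance would give about 1 in 20 of independent groups. The groups share libraries, and all of these flags but that of AHNAK came from the single library of control rat 1. They are therefore not separate departures from chance. On rescaled TPM none of the levels of FAT1, AHNAK, DST, FLNA or ARHGAP21 exceeded that critical value in either diet. Control rat 1 was still well above the other controls there for FAT1 (3.76 against 2.11 to 2.59) and FLNA (19.5 against 14.0 to 15.7). Of the 5 genes, FLNA had the most negative correlation with the mean effective length over 10 rats (r = -0.703), and without control rat 1 the 5 values lay between -0.080 and 0.186. Whether transcript length had a part in the levels of these genes was not tested.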

How the results depend on the processing

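The log2 differences of the 5 genes were above 0 in all 91 values obtained over 19 alternatives. The genes were picked as higher in these same rats, so this common sign is a description and no test of the difference. Without any 1 rat the values ranged over 0.59 to 0.79 for FAT1, 0.52 to 0.71 for AHNAK, 0.36 to 0.48 for DST, 0.36 to 0.48 for FLNA and 0.14 to 0.21 for ARHGAP21. ARHGAP21 moved to 0.28 on deposited TPM. The number of genes with an adjusted p under 0.05 by limma was 0, but 1 with no filter on low genes and 3 with array weights. The 1048 genes with an unadjusted p under 0.05 became 624 on deposited TPM, 619 for genes averaging 10 TPM or more and 1874 with array weights, and ranged from 793 to 1434 when 1 rat was left out. On deposited TPM the median log2 difference became 0.091 for the ARHGAP21 list, 0.061 for actin remodelling genes and 0.32 for genes of very large proteins. The number of pairs with an adjusted exact permutation p under 0.05 was 1, and between 1 and 2 without any 1 rat. It was 2 without control rat 1, which added AHNAK with DST (r = 0.849, and 0.884 also on deposited TPM), and 2 without HFD-fed rat 4, which added AHNAK with ARHGAP21 (r = 0.661). On deposited TPM FAT1 with ARHGAP21 lost its call (r = 0.344, and 0.811 without control rat 1) and DST with ARHGAP21 gained one (r = 0.846), which was lost again without control rat 1 (r = 0.694). Signs turned for FAT1 with FLNA (r = -0.219, and up to 0.719 without any other rat) and FLNA with ARHGAP21 (r = -0.424, and up to 0.345) without control rat 1, and for DST with FLNA on deposited TPM (r = 0.374, and 0.301 without control rat 1). AHNAK minus DST in level turned to -0.022 without control rat 1 on both scales and to -0.000616 without HFD-fed rat 1, the highest value without any 1 rat being 0.057. The cause was not tested.

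A replicate block in the limma fit gave 0 adjusted and 1141 unadjusted p-values under 0.05, and the median of the 5 genes stayed at 0.41. Deviations of same-numbered rats correlated at 0.116, -0.038, 0.011, 0.060 and 0.106. Rats of different numbers were not compared, so these values cannot tell whether the numbers pair the rats. Read depth was not known, 5 rats a diet limit every correlation, and most relatives of the 5 genes carried no name.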
